A study of Mus musculus with 12 samples.

Results

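This comparison asked what 4-OHT did to the RNA of ATF2 mutant melanocytes kept in low oxygen. It rests on 4 of the 12 arrays of the series, namely 2 arrays of mutant cultures with 4-OHT in hypoxia and 2 of mutant cultures without 4-OHT in hypoxia, chosen by their titles. Each array measured total RNA of cultured primary melanocytes from the skin of 1-day-old pups on an Illumina Mouse-6 BeadChip, an array of beads that each carry copies of a single probe. The mice carried floxed Atf2, a Cre recombinase fused to an estrogen receptor and driven by the melanocyte-specific tyrosinase promoter, a doxycycline-induced NRAS Q61K transgene and Ink4a-/-, on an FVB/129/OlaHsd/C57Bl/6 background.

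The 4 cultures share these alleles, doxycycline (2 µg/ml for 24 h by the methods) and 12 h at 1% O2. The first group also had 4-OHT, the active form of tamoxifen (10 µM for 8 h by the methods), and the second had none. 4-OHT moves the Cre fusion into the nucleus, where it cuts out the floxed exons, which ATF2 needs to bind DNA. Without 4-OHT the floxed exons should remain, yet the genotype of these cultures is likewise given as ATF2-/-. Recombination is limited to cells in which the tyrosinase promoter is active, so other cells of a culture would keep the allele. 4-OHT is also a ligand of estrogen receptors, and 0 of the arrays hold a culture with 4-OHT but without the floxed allele, so an effect of the drug and an effect of the deletion cannot be told apart. The 4 arrays of the same mutant cultures in normoxia, 2 with and 2 without 4-OHT, were used for the spread and for a second reading of the drug.

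ATF2 is a transcription factor of the bZIP family, which binds DNA as a dimer with JUN proteins or with itself and is switched on by stress kinases. Its dimers bind the cAMP response element, or CRE, and related sites of the AP-1 type. In hypoxia the HIF factors are stabilised and switch on genes of glycolysis and of oxygen sensing. Melanocytes arise from the neural crest and make melanin in the melanosome, whereas the genes of the contractile apparatus and of the nerve-muscle junction are switched on in skeletal muscle by MYOD and its relatives, which bind E-boxes such as CAGCTG.

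A probe was kept where its detection p was under 0.01 on at least 1 of the 4 arrays. The detection p is the rank of the probe among the negative control beads of its array. This kept 13809 of 46554 probes, and the probes nearest to the threshold had a lowest detection p of 0.009981 inside it and of 0.01061 outside it. A gene name could be given to 4222 of the kept probes (30.6%), which stand for 3790 genes, each read from its brightest kept probe. Values below are normalized log2 signals, where a difference of 1 is a 2-fold difference, and a call is an adjusted p under 0.05 from limma with Benjamini-Hochberg adjustment over all 13809 probes. The labels do not say which arrays of a group came from separate cultures or animals, so the p-values reflect array-to-array spread alone, which may be technical. Where a probe was not above background on either array of a group, the fold is given as a lower bound, with the dim group set to the lowest signal that was above background.

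The 4 arrays had 10877 to 12712 probes above background. The 2 arrays with 4-OHT correlated at 0.966 and differed by over 2-fold at 467 probes, and the 2 without 4-OHT at 0.992 and 58 probes. Between the groups the correlation was 0.884 to 0.904, with 2074 to 2699 probes over 2-fold apart. In normoxia the 2 arrays with 4-OHT correlated at 0.947, with 1256 probes over 2-fold apart, and the 2 without at 0.976 and 287 probes. A gene that did not pass in normoxia may thus still have changed there. The cultures without 4-OHT in hypoxia stood apart from all other mutant cultures. Both of their arrays lay above the 6 other mutant arrays at 3161 of the 13809 probes and below them at 2483, and by over 2-fold at 74 and 403. For the cultures with 4-OHT in hypoxia these counts were 442 and 385, with 0 and 0 over 2-fold. Most of the rises described here are therefore set against a group that is low in these genes, and whether the drug, or another property of the cultures without 4-OHT in hypoxia, sets the difference was not tested. The labels do not say that these cultures came from the same isolate as the others, and another isolate or a swapped sample cannot be told apart from an effect of 4-OHT. In cultures of several cell types, fewer cells of a type and less RNA per cell cannot be told apart either.

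The alleles themselves were mostly out of reach of the array. On 0 of the 4 arrays did the Atf2 probe exceed background. It read 46.2 and 46.0 units with 4-OHT and 27.9 and 43.9 units without, and whether the probe lies in the deleted exons is not given. Probes named for Cre, rtTA and tTA were not above background on any of the 4 arrays. A probe for neomycin resistance, NeoR, read 2206 and 4123 units with 4-OHT and 5350 and 7820 units without, and the construct it reports is not given. Nras read 57.9 and 73.1 units with 4-OHT and 52.9 and 71.8 units without, with a log2 fold change of -0.03 (SE 0.27, adjusted p = 0.949 from limma). A probe named for p16 Ink4a, from the locus deleted in part in Ink4a-/- mice, was above background on all 4 arrays, and whether it lies in the deleted part is not given. Its Cdkn2a signal was 6.89 and 7.79 on the log2 scale with 4-OHT and 7.35 and 7.56 without (-0.12, adjusted p = 0.909 from limma). A probe of Xist was above background on all 4 arrays and the Y-linked genes Ddx3y, Eif2s3y and Kdm5d on none, in both groups alike.

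Of the 13809 probes, 2986 were called in hypoxia (21.6%), 1474 higher with 4-OHT (10.7%) and 1512 lower (10.9%), and 1893 of them differed by at least 2-fold. With median scaling in place of quantile normalization 769 were higher and 431 lower, so the even split depends on the scaling. Of the 3790 named genes 698 were called (18.4%), 368 of them higher with 4-OHT (9.71%) and 330 lower (8.71%). All 698 called genes had the same sign on both slides, which carry replicate 1 and replicate 2 of every group. They were called on these same arrays, so this agreement follows largely from the selection and is a description. The median log2 fold change of the genes called higher was 1.24 and that of the genes called lower -1.02. Of the named genes, 172 were above background on both arrays with 4-OHT and on neither without, against 57 the other way round. Calls became fewer without an array of the cultures without 4-OHT in hypoxia, 903 probes without replicate 1 and 931 without replicate 2, and 1590 passed without replicate 1 of the cultures with 4-OHT.

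The 2 genes with the largest rises encode subunits of the acetylcholine receptor of muscle. Their promoters are shown because both hold the E-box CAGCTG in more than 1 place, and the promoters of Neurl1a and Braf because they hold the CRE, the site that ATF2 dimers bind. The windows run from 250 bases before to 50 bases after the start of each gene, from RefSeq on GRCm38.p6, written 5′ to 3′ on the strand of the gene. Capitals mark CAGCTG in the first pair and TGACGTCA in the second pair. Chrna1 lies at chr2:73580289-73580588 on the minus strand, Chrng at chr1:87205561-87205860 on the plus strand, Neurl1a at chr19:47178570-47178869 on the plus strand and Braf at chr6:39725414-39725713 on the minus strand.
Chrna1: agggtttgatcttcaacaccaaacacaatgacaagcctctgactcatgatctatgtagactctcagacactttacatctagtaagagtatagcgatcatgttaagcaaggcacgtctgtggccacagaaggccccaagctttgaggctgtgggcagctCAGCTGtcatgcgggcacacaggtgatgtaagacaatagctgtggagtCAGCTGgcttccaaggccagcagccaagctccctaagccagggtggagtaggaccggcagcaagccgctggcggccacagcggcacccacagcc
Chrng: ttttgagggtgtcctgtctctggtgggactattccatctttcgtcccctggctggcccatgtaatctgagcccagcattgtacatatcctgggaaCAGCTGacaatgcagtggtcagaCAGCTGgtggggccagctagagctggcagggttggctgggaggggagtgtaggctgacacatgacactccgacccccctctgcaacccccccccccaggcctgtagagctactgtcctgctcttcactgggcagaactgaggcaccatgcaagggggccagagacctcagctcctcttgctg
Neurl1a: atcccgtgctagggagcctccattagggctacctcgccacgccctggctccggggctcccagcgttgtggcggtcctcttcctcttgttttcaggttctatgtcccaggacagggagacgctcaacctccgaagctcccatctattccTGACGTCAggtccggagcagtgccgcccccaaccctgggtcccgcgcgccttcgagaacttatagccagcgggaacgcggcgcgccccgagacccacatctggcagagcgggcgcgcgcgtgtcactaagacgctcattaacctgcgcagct
Braf: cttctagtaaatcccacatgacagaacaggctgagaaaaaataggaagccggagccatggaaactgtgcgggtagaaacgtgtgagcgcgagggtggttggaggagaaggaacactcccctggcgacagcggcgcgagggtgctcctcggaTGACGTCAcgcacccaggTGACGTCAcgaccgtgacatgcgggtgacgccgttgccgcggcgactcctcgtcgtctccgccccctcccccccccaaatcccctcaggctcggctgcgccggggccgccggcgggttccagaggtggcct
Counted from the start of the gene as 0, the motif CAGCTG begins at -92 and -44 in Chrna1 and at -155 and -132 in Chrng. TGACGTCA begins at -102 in Neurl1a and at -99 and -81 in Braf. Both motifs read the same on either strand, and none of the 5 motifs searched contains another.

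Chrna1, the alpha subunit of the receptor, had log2 signals of 11.45 and 11.99 with 4-OHT in hypoxia, against 4.34 and 4.30 without. In normoxia it had 11.18 and 11.67 with 4-OHT and 11.41 and 11.50 without. The gene was thus bright in 3 of the 4 groups and at the bottom of the scale in cultures without 4-OHT in hypoxia. Its log2 fold change in hypoxia was 7.40 (SE 0.25, adjusted p = 1.16e-06 from limma), a rise of at least 117-fold, and a second, dimmer probe rose at least 2.35-fold (adjusted p = 0.0149 from limma). Chrng, the gamma subunit of the embryonic form of the receptor, had 11.41 and 10.97 with 4-OHT in hypoxia and 4.27 and 4.36 without. It rose at least 80.8-fold (log2 fold change 6.88, SE 0.22, adjusted p = 1.16e-06 from limma). In normoxia Chrng had 10.65 and 10.63 with 4-OHT and 11.29 and 11.12 without. Both groups were high there, and its log2 fold change there was -0.56 (adjusted p = 0.238 from limma).

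Genes of the contractile apparatus and of calcium release rose with the receptor. Myh7, the slow myosin heavy chain, had 9.75 and 9.62 with 4-OHT and 4.40 and 4.46 without, a rise of at least 28.4-fold. Ryr1, the calcium release channel of muscle, had 7.98 and 7.69 with 4-OHT and 4.27 and 4.33 without, a rise of at least 7.89-fold. Neither gene was above background on an array without 4-OHT in hypoxia. Actn3, the alpha-actinin of fast fibres, rose at least 5.83-fold, Srl, the sarcalumenin of the sarcoplasmic reticulum, at least 4.08-fold, Mybpc1, a myosin binding protein, at least 2.52-fold and Casq1, the calcium buffer of the same store, at least 1.86-fold. Eno3, the muscle enolase, had 9.93 and 9.90 with 4-OHT and 7.92 and 7.91 without, and rose by 2.0 on the log2 scale (SE 0.20, adjusted p = 3.45e-04 from limma). Car3, a carbonic anhydrase of slow muscle, rose at least 20-fold, and the actin-associated gene Synpo2l at least 1.96-fold. Mest, an imprinted gene that the list also holds, had 10.41 and 10.06 with 4-OHT and 4.68 and 4.47 without, and rose at least 41.7-fold.

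The 12 tested genes of the skeletal muscle list were all called higher, where 9.71% of all named genes were. Of these, 11 were kept only through the arrays with 4-OHT, since they were not above background on either array without it in hypoxia, so the count had to lean this way and is a description. Their median fitted log2 fold change was 3.10, 2.08 with an offset of 50 and 1.58 with a background estimated from all probes, and its size rests on signals at background. Their summed intensity was 10145 and 10039 units with 4-OHT in hypoxia and 489 and 483 units without, and in normoxia 9285 and 8454 units with 4-OHT and 9349 and 8898 units without. The cultures without 4-OHT in hypoxia were thus low in these genes by themselves. On each of their arrays 1 of the 12 genes was above background, against 12 and 12 with 4-OHT. Musk, Myh6, Ttn and Neb, which also mark muscle, were below background on all 4 arrays. The count was 10 to 12 with any single array left out and 8 with a background estimated from all probes. This list was written with earlier results of these data known, so its direction is a description. Of the 9 genes of the list with a promoter in the table, 6 held CAGCTG (66.7%), namely Chrng, Casq1, Chrna1, Mest, Mybpc1 and Eno3. The motif was in 21.4% of the promoters of all genes called higher, 13% of those called lower, 14.2% of those tested and 16.1% of all promoters in the table.

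**Figure D1:**
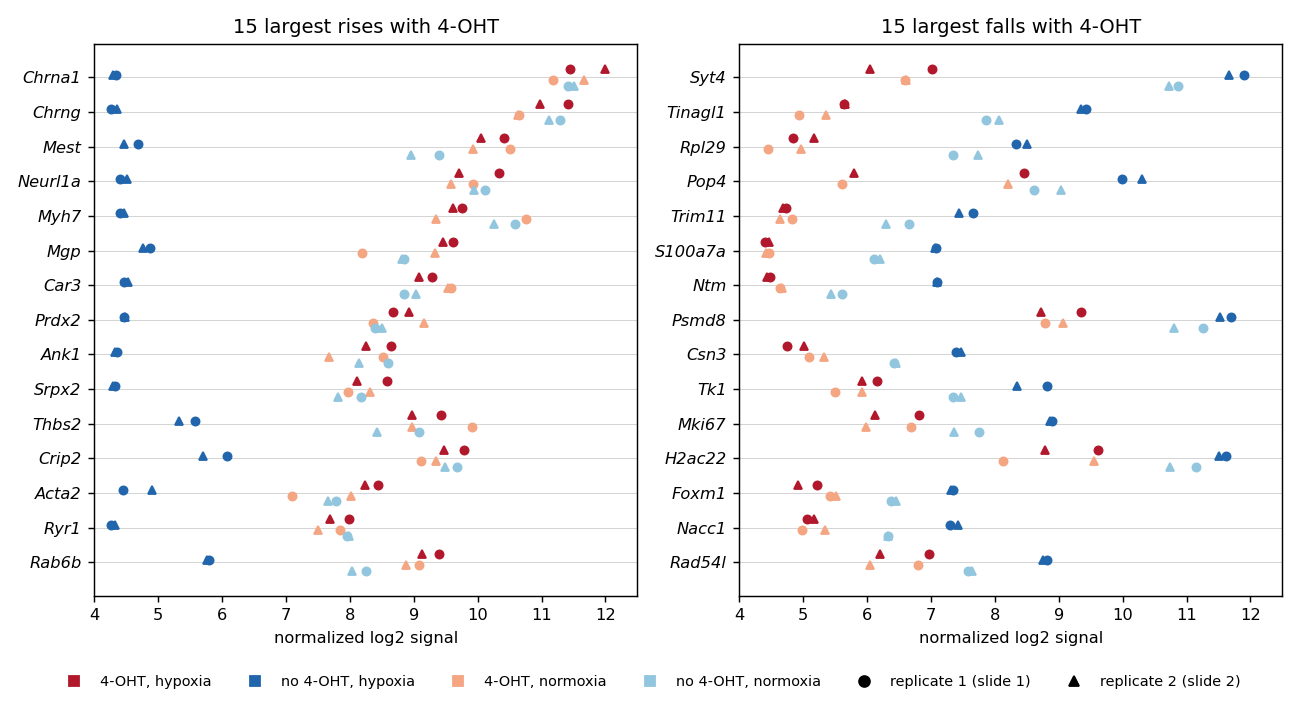
Normalized log2 signals on the 8 mutant arrays of the 15 named genes with the largest rises (left) and the largest falls (right) in hypoxia. Each point is 1 array, with colours for the groups and shapes for the replicates. For the rises, cultures without 4-OHT in hypoxia lie apart from the 3 other groups, as for Chrna1 at 4.34 and 4.30. For most of the falls, the 2 groups with 4-OHT lie together below the 2 groups without it.

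The other large rises were genes of several functions. Neurl1a, a ubiquitin ligase of the Neuralized family, had 10.33 and 9.71 with 4-OHT and 4.40 and 4.51 without, a rise of at least 35.9-fold. Mgp, which encodes matrix Gla protein, an inhibitor of calcification, rose at least 25.6-fold. Prdx2, a peroxiredoxin that removes hydrogen peroxide, rose at least 15.4-fold, Ank1, which links membranes to spectrin, at least 12.1-fold, Srpx2, a secreted sushi-repeat protein, at least 11.2-fold and Acta2, the actin of smooth muscle, at least 10.7-fold. Crip2, a LIM domain protein, had 9.78 and 9.48 with 4-OHT and 6.08 and 5.71 without, and rose by 3.73 on the log2 scale (SE 0.23, adjusted p = 2.41e-05 from limma). Thbs2, an antiangiogenic thrombospondin of the matrix, rose by 3.75 and Rab6b, a small GTPase of vesicle traffic, by 3.48. In all 15 genes with the largest rises the groups in hypoxia did not overlap, as the rule asked. Over all probes this was so for 31.3% that were higher and 35.4% that were lower. Of these genes 0 passed in normoxia, where their log2 fold changes ran from -0.56 for Chrng to 1.03 for Mest.

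The falls were smaller, and 7 of the 15 largest also passed in normoxia. Syt4, a synaptotagmin of dense-core vesicles, had 7.01 and 6.05 with 4-OHT in hypoxia, against 11.90 and 11.66 without. In normoxia it had 6.59 and 6.61 with 4-OHT and 10.86 and 10.73 without. Both groups with 4-OHT lay below both groups without it, and without 4-OHT the arrays in hypoxia were the higher ones. The log2 fold change was -5.25 in hypoxia (SE 0.30, adjusted p = 2.01e-05 from limma) and -4.20 in normoxia (adjusted p = 0.00392), although a second, dimmer probe of Syt4 did not pass (-0.49, adjusted p = 0.217). Tinagl1, a matricellular protein, had 5.64 and 5.66 with 4-OHT and 9.43 and 9.35 without, with log2 fold changes of -3.74 in hypoxia and -2.82 in normoxia, and both passed. Rpl29, a ribosomal protein whose gene has many processed copies, was not above background with 4-OHT and was at least 8.57-fold lower, the only one of 61 tested ribosomal protein genes that was called lower. Trim11, a ubiquitin ligase, was at least 5.47-fold lower and S100a7a, an S100 protein, at least 3.94-fold lower. Both also passed in normoxia (-1.74 and -1.72).

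Psmd8, a subunit of the proteasome lid, had 9.35 and 8.72 with 4-OHT and 11.70 and 11.53 without, and its log2 fold change was -2.57 in hypoxia and -2.11 in normoxia. Pop4, a subunit of ribonuclease P, had 8.45 and 5.79 with 4-OHT and 9.99 and 10.30 without. Its arrays with 4-OHT thus lay far from each other, with differences of -1.54 and -4.51 within the slides, and its adjusted p was 0.0480. Ntm, a neural adhesion molecule, was at least 3.99-fold lower, Csn3, the kappa casein, at least 4.58-fold lower while Nacc1, a transcriptional repressor, had a log2 fold change of -2.24. The remaining genes among the 15 largest falls were Tk1, Mki67, Foxm1 and Rad54l, which belong to cell division, and the histone gene H2ac22.

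Genes of the cell cycle were lower with 4-OHT. Mki67, the proliferation antigen Ki-67, had 6.81 and 6.12 with 4-OHT and 8.89 and 8.87 without, a log2 fold change of -2.41 (SE 0.32, adjusted p = 0.00125 from limma). Foxm1, the transcription factor that drives mitotic genes, was at least 4.41-fold lower. Of 10 tested genes of G2 and mitosis 8 were lower and 0 higher, against 8.71% lower among all named genes, with a median of -1.68. They were Ccnb1 (-2.0), the cyclin of mitotic entry, Plk1 (-1.90), a kinase of the spindle poles, the cytokinesis gene Anln (-1.84), the kinesin Kif4 (-1.78), the centromere histone Cenpa (-1.77), the kinetochore gene Spc24 (-1.59), Birc5 (-1.54), a subunit of the chromosomal passenger complex, and Cdc20 (-1.17), which activates the anaphase-promoting complex. Fzr1 (-0.30) and Smc4 (fitted value -0.77, not above background with 4-OHT) did not pass. In normoxia the median of the 10 was -0.90 and 0 passed, and the difference between the oxygen levels passed for 0 of them. The count in hypoxia was 4 without the first and 5 without the second array of the cultures without 4-OHT.

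Of 15 tested genes of S phase 10 were lower (8.71% of all named genes were) and 0 higher, with a median of -0.97 that was -0.52 with a background from all probes. Tk1, the thymidine kinase, had 6.15 and 5.92 with 4-OHT and 8.82 and 8.34 without (log2 fold change -2.54, SE 0.25, adjusted p = 2.86e-04 from limma). Cdca7 (-2.15), a gene bound by MYC and E2F factors, and Uhrf1 (-2.06), which maintains DNA methylation, followed. Cdc6, which loads the replicative helicase, was at least 2.64-fold lower and Ung at least 2.02-fold lower. Both were not above background with 4-OHT in hypoxia and were kept only through the arrays without it. Their part of the count of 10 thus leans this way by the rule. Rfc5, Fen1, Mcm7, Rrm2 and Rfc2 lay between -0.85 and -1.52, and Pcna at -0.76 (adjusted p = 0.338 from limma). The count was 5 without the first and 6 without the second array of the cultures without 4-OHT in hypoxia, and 6 with median scaling. Cdkn1a, the p53 target that encodes the kinase inhibitor p21, had 11.17 and 11.18 with 4-OHT and 9.41 and 9.51 without, and rose by 1.71 (SE 0.19, adjusted p = 5.41e-04 from limma). In normoxia it was at 11.11 and 10.99 with 4-OHT and 10.80 and 10.95 without, so the cultures without 4-OHT in hypoxia lay below the 6 other arrays in p21. Of 6 tested p53 targets 2 were higher, Cdkn1a and the repair gene Xpc (0.93), and 0 were lower, where 9.71% of all named genes were higher. The count was 1 with median scaling, with a background from all probes or with any array in hypoxia left out, and Xpc fell short in 9 alternatives.

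Ccnd1, which encodes Cyclin D1, had log2 signals of 10.88 and 10.63 with 4-OHT in hypoxia, against 12.00 and 11.81 without. In normoxia it had 10.48 and 10.04 with 4-OHT and 11.71 and 11.69 without. Arrays with the drug were low at both oxygen levels. Its log2 fold change was -1.15 in hypoxia (SE 0.22, adjusted p = 0.00813 from limma) and -1.45 in normoxia (adjusted p = 0.0484 from limma). The further probes of Ccnd1 fell too, by 2.50 (adjusted p = 6.32e-05) and 1.90 (adjusted p = 5.00e-04 from limma). Of 8 tested genes of the RAS and ERK pathway, 3 were lower (8.71% of all named genes were) and 0 higher. Ccnd1 and Braf (-1.07), a kinase directly below RAS, were among the 3. The count was 1 with median scaling or with either array with 4-OHT left out, and 0 with either array without 4-OHT left out.

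Histone genes of the replication-linked clusters moved in opposite directions by type. They were grouped by symbol after their values had been seen. Of 8 tested H2A genes 6 were lower, where 8.71% of all named genes were. Of 10 tested H2B genes 8 were higher, where 9.71% of all named genes were. H2ac22 had 9.61 and 8.79 with 4-OHT in hypoxia and 11.62 and 11.50 without, and in normoxia 8.13 and 9.55 with 4-OHT and 11.14 and 10.74 without. The median of the H2A genes was -1.94 in hypoxia and -1.94 in normoxia. H2bc22 had 10.54 and 10.65 with 4-OHT in hypoxia and 9.04 and 9.11 without, and in normoxia 9.51 and 10.23 with 4-OHT and 9.86 and 9.78 without. The median of the H2B genes was 1.52 in hypoxia and 0.14 in normoxia. H2ac22 was thus low in both groups with 4-OHT, whereas H2bc22 was low in cultures without 4-OHT in hypoxia. Of 7 tested H4 genes and 6 tested H3 genes, 0 and 0 passed. The copies within a type are nearly identical, so their probes may share targets and cannot be counted as separate genes. With any array of the hypoxia groups left out, 1 H2B gene and 2 to 5 H2A genes passed. With median scaling 3 H2B and 5 H2A genes passed, and with a background from all probes 1 and 2.

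**Figure D2:**
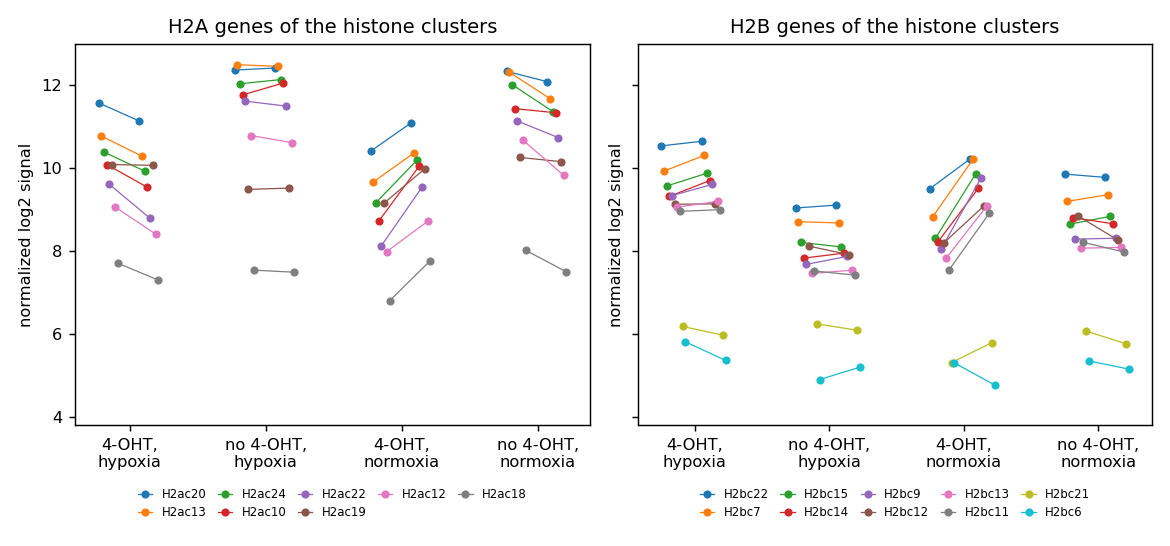
Normalized log2 signals of the tested H2A genes (left) and H2B genes (right) on the 8 mutant arrays. Each colour is 1 gene, and a line joins replicate 1 and replicate 2 of a group. H2ac22 reads 9.61 and 8.79 with 4-OHT in hypoxia against 11.62 and 11.50 without, and H2bc22 reads 10.54 and 10.65 against 9.04 and 9.11.

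Several genes of the interferon response and of antigen presentation rose. Of 7 tested interferon genes 5 were higher (9.71% of all named genes were) and 0 lower. Their median was 1.44, 0.77 with an offset of 50 and 0.48 with a background from all probes. Ifit3, an antiviral protein, had 7.26 and 7.18 with 4-OHT and 4.34 and 4.58 without, and rose at least 5.14-fold. Igtp, an immunity-related GTPase, rose at least 2.70-fold and the antiviral GTPase Mx2 at least 2.18-fold. Ifit3, Igtp and Mx2 were not above background without 4-OHT in hypoxia and were kept only through the arrays with it. The count of 5 thus leans this way by the rule and is a description. Irf9, the DNA binding subunit of the interferon factor ISGF3, rose by 1.55, and B2m, the light chain of MHC class I, by 0.72 (adjusted p = 0.0490 from limma). Irf1 (0.47) did not pass. The median of the 7 in normoxia was 0.43, and 0 passed. In hypoxia 3 passed without the first array with 4-OHT, without either array without 4-OHT, or with a background from all probes. H2-T23, a nonclassical MHC class I gene looked at after its value was seen, had 9.39 and 9.07 with 4-OHT and 6.52 and 6.29 without (log2 fold change 2.83, adjusted p = 7.58e-05 from limma).

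Of 20 tested HIF targets 3 were higher (15%, near the 9.71% of all named genes) and 0 lower, with a median of -0.24. The count was 2 with median scaling, without the first array with 4-OHT or without either array without 4-OHT. Egln3, the oxygen sensor PHD3, had 8.23 and 8.20 with 4-OHT in hypoxia and 5.48 and 5.62 without, and in normoxia 7.34 and 7.46 with 4-OHT and 7.58 and 7.30 without. It rose by 2.67 in hypoxia (SE 0.20, adjusted p = 6.53e-05 from limma). Igfbp3, a binding protein of insulin-like growth factors, rose at least 2.39-fold and Pfkm, the muscle form of phosphofructokinase, by 0.98. The other glycolytic enzymes of the list did not pass. Their log2 fold changes ran from a fitted -0.71 for Hk1, a hexokinase not above background with 4-OHT, to 0.61 for Pfkfb4. Ldha had 12.78 and 12.63 with 4-OHT and 12.48 and 12.37 without (log2 fold change 0.28, adjusted p = 0.349 from limma), and Pgk1 had 11.03 and 11.31 with 4-OHT and 11.33 and 11.47 without (-0.23, adjusted p = 0.482 from limma). The groups overlapped for neither gene, but these differences did not pass.

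The tested genes of the pigment cell were above background on all 4 arrays and did not pass. Of 10 melanosome genes with a named probe 7 were tested, and the others were above background on none of the 4 arrays. Each of the 7 exceeded background on every array. Of these 0 were called, and their median log2 fold change was 0.13. With the slide as a block the copper transporter Atp7a was lower (-0.61, adjusted p = 0.0489 from limma). Dct, the dopachrome tautomerase, had 13.71 and 13.71 with 4-OHT and 13.51 and 13.85 without (log2 fold change 0.03, SE 0.20, adjusted p = 0.930 from limma). The brightest kept probe of each array is at 14 after quantile normalization, so a change of Dct, Gpnmb (0.11) or Cd63 (0.13) had little room to show upward. Trpm1, a channel of melanocytes, had 10.41 and 10.99 with 4-OHT and 9.75 and 10.17 without, and Hps4, which helps to build the melanosome, had 8.46 and 8.13 with 4-OHT and 8.27 and 7.89 without. Of 5 listed transcription factors and receptors with a named probe 3 were tested, and the others were above background on none of the 4 arrays. Sox5 (0.63, adjusted p = 0.0594 from limma), Tfap2a (-0.11) and Zeb2 (0.19) did not pass. Sox5 passed in 9 alternatives, among them the slide as a block (adjusted p = 0.0379 from limma), and another kept probe of it passed without the block. For Mitf, Tyrp1, Pmel, Sox10, Esam, Angpt2 and Tgfbi no kept probe could be named, so they were not analysed here.

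Markers of other cell types moved between the groups, where 9.71% of all named genes were higher and 8.71% lower. Of 8 tested fibroblast markers 8 and 8 were above background on the arrays with 4-OHT and 5 and 5 on those without, with summed intensities of 1639 and 1605 units with 4-OHT and 1611 and 1581 units without. Of these 8, 4 were higher and Fbln1 was lower (-0.78). Fbln1 fell short in 7 alternatives, among them median scaling. Fbln2, a fibulin of the matrix, rose at least 4.48-fold, Col6a1, a chain of collagen VI, at least 4.38-fold and the proteoglycan Dcn at least 2.44-fold, while Loxl1, which crosslinks elastin, rose by 1.24. Col1a1, Col1a2, Col3a1, Col5a2 and Postn, which define fibroblasts, were below background on all 4 arrays. Of 3 tested keratinocyte markers 2 were higher, Itgb4, the beta-4 integrin of hemidesmosomes, at least 6.98-fold and Krt17 by 2.42, with summed intensities of 595 and 490 units with 4-OHT and 137 and 141 units without. Krt6a, Krt6b, Krt15, Dsg3 and Sfn were below background on all 4 arrays. Of 4 tested endothelial markers Emcn was at least 6.31-fold higher and Eng was lower (-2.17), with summed intensities of 410 and 339 units with 4-OHT and 528 and 480 units without, and Pecam1 and Vwf were below background on all 4 arrays. Of 5 tested Schwann cell markers Ncam1 was higher, by 3.15, with summed intensities of 3570 and 4333 units with 4-OHT and 1020 and 1301 units without. Ngfr was below background on all 4 arrays. Lpl was the only tested adipocyte marker (-0.29, adjusted p = 0.630 from limma). Acta2 was the only tested marker of smooth muscle, and of 10 myeloid and mast cell markers 0 were above background. Fbln2, Col6a1, Dcn, Itgb4, Emcn and Acta2 were not above background without 4-OHT in hypoxia and were kept only through the arrays with it. The counts of higher markers thus lean this way by the rule and are descriptions. The part of other cells in the rises and falls was not tested.

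Genes of the matrix and of the cytoskeleton were called in both directions, where 9.71% of all named genes were higher and 8.71% lower. Of 21 tested genes of the matrix and integrins 6 were higher and 4 lower, and of 20 tested genes of actin contractility 7 were higher and 3 lower. With median scaling 2 and 1 were lower, and with an array in hypoxia left out 2 to 3 and 1. Of the actin genes 4 to 7 were then higher, and 4 with a background from all probes. Fbln2, Col6a1, Dcn and Itgb4 of the matrix and Acta2 and Actn3 of actin contractility were kept only through the arrays with 4-OHT. The counts of higher genes thus lean this way by the rule and are descriptions. Ccn1, a matricellular protein, had 5.58 and 5.86 with 4-OHT and 7.73 and 7.86 without, a log2 fold change of -2.08 (SE 0.23, adjusted p = 5.18e-04 from limma). Col8a1 (-1.77), a short-chain collagen, and Itgb5 (-0.84), an integrin chain, fell too. Mylk, the myosin light chain kinase, had 8.86 and 8.77 with 4-OHT and 7.03 and 6.88 without and rose by 1.86, whereas Pdlim1, a LIM protein of stress fibres, had 9.08 and 8.78 with 4-OHT and 10.79 and 10.93 without (-1.94). Cytoplasmic actin, Actb, had a log2 fold change of -0.64 (adjusted p = 0.0481) and Tpm4, a tropomyosin, of -0.78 (adjusted p = 0.0498 from limma). Both fell short of the threshold with median scaling and with any array in hypoxia left out.

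Few genes of protein folding and of lipid synthesis were called, and several of these calls depended on the setting. Of 6 tested genes of the unfolded protein and ATF4 response 3 were lower (8.71% of all named genes were) and 0 higher, namely the chaperone Hspa5 (-1.43), the disulfide isomerase Pdia6, at least 1.71-fold lower, and the transcription factor Xbp1 (-0.64). The count was 0 with median scaling, 1 with a background from all probes and 0 to 2 with an array in hypoxia left out. Of 13 tested heat shock and chaperonin genes the small heat shock protein Hspb1 was higher, with 9.40 and 8.86 with 4-OHT and 6.58 and 6.33 without (2.68, adjusted p = 4.14e-04), and Hsp90aa1 was lower (-1.46, adjusted p = 0.0374 from limma). Each call was 7.69% of the list, under the share of all named genes in its direction. Hsp90aa1 fell short in 8 alternatives, among them median scaling. Of 19 tested genes of sterol and fatty acid synthesis 3 were lower (8.71% of all named genes were) and 0 higher, among them Stard4 (-1.74), which carries cholesterol, and Mvk, mevalonate kinase, at least 1.27-fold lower. The count was 2 with median scaling and 1 without either array of the cultures without 4-OHT in hypoxia. Of 20 tested lysosomal genes Ppt1 was higher (0.86) and Naglu (-0.95) and Atp6v0a1 (-0.88) were lower. Of 32 tested genes of oxidative phosphorylation Uqcrc1 was lower (-0.72), and of 61 tested ribosomal protein genes Rpl7 and Rps9 were higher (1.02 and 0.68) and Rpl29 was lower. For the lysosome, oxidative phosphorylation and the ribosome these shares lay near or under those of all named genes. Pdia6 and Mvk were kept only through arrays without 4-OHT in hypoxia, so their part of the counts of lower genes leans this way by the rule.

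Of 5 tested genes of the JUN, FOS and ATF family of bZIP factors, Maf (-1.31) and Mafg (-0.73) were lower. Among all named genes 8.71% were lower. The count was 1 with median scaling, and Mafg fell short in 9 alternatives. Junb had 6.99 and 6.76 with 4-OHT and 7.26 and 7.25 without and did not pass (-0.38, adjusted p = 0.257), nor did Atf7, the closest relative of ATF2 (-0.24, adjusted p = 0.482 from limma). Kif1c, a kinesin, was not above background with 4-OHT and had 6.05 and 5.73 without. It was at least 1.49-fold lower (fitted value -0.76, adjusted p = 0.0452 from limma). Pcdh7, a protocadherin, was not above background with 4-OHT and was above it on 1 of the 2 arrays without. It did not pass (fitted value -0.55, bound -0.12, adjusted p = 0.148 from limma). The CRE, TGACGTCA on either strand, was in 5.17% of the promoters of genes called higher, 5.73% of those called lower, 3.8% of those tested and 1.88% of all promoters in the table. This came to 15 promoters in each direction. AP-1 sites, TGACTCA, were in 3.45%, 2.67%, 3.14% and 5.17%, the HIF core ACGTG in 17.2%, 24.4%, 25.5% and 19.7%, and the E-box of MITF, CATGTG, in 8.62%, 9.92%, 7.99% and 14.1% of the same sets. A match of letters is not a bound site.

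**Figure D3:**
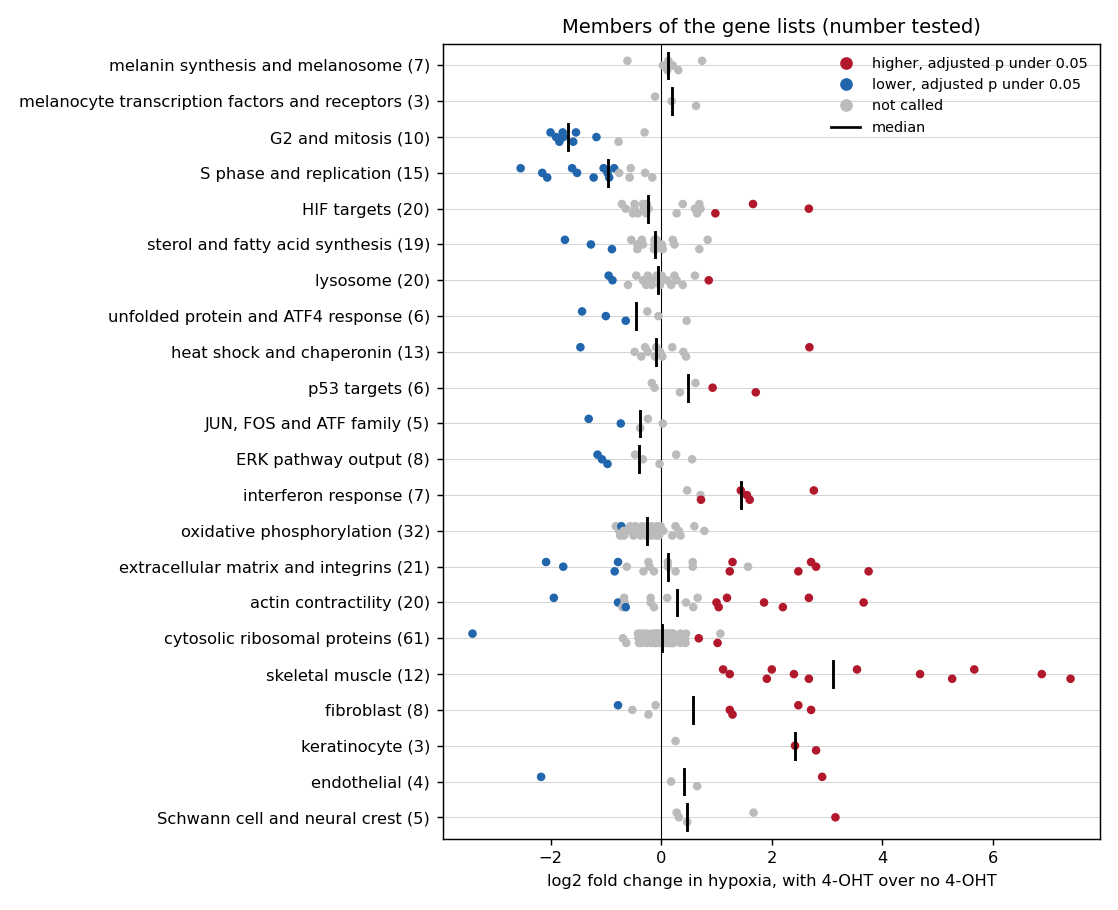
Log2 fold changes in hypoxia, with 4-OHT over no 4-OHT, of the tested members of each gene list with at least 3 of them. Points are genes, coloured by their call, and the bar is the median of the list. The muscle list lies wholly to the right with a median of 3.10 that rests on signals at background, the genes of G2 and mitosis to the left with a median of -1.68, and the melanosome genes around 0.13.

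The effect of 4-OHT was then compared between hypoxia and normoxia, which share no array. In normoxia 50 of the 13809 probes were called (0.362%), 8 higher (0.0579%) and 42 lower (0.304%). Among the named genes 13 were lower (0.343%) and 0 higher, and 12 of these 13 were also lower in hypoxia. Genes that fell in hypoxia mostly leaned the same way in normoxia. Of the 330, 306 were negative there (92.7%, against 52.5% of all named genes), with a median of -1.02 in hypoxia and -0.49 in normoxia. Of the 368 genes that rose in hypoxia 272 were positive in normoxia (73.9%, against 47.5% of all named genes), with medians of 1.24 and 0.25. Across the 3790 named genes the log2 fold changes of the 2 oxygen levels correlated at 0.46 (Spearman 0.50), as a description over genes, which are not independent replicates.

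The difference between the effects, hypoxia minus normoxia, passed for 387 probes (2.8%), of which 353 were more positive in hypoxia (2.56%) and 34 more negative (0.246%). With the slide as a block the count was 665, and that in normoxia 506. Of the named genes 95 passed (2.51%), 90 more positive (2.37%) and 5 more negative (0.132%). The largest fitted values were for Chrng (7.44), Chrna1 (7.43), Neurl1a (5.84), Myh7 (5.63) and Mgp (4.78), all 5 set against signals at background, and 10 of the 12 muscle genes were among the 90. The 5 genes with a more negative effect were Ntm (-1.76), Spsb4 (-1.74), an adaptor of a ubiquitin ligase, Rfng (-1.48), which modifies Notch receptors, Csn3 (-1.33) and Foxm1 (-1.32). Ntm had 4.48 and 4.44 with 4-OHT in hypoxia and 7.09 and 7.09 without, and in normoxia 4.64 and 4.67 with 4-OHT and 5.60 and 5.44 without. Cultures without 4-OHT in hypoxia were thus the highest group for Ntm and the lowest for the 5 genes with the largest positive differences.

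**Figure D4:**
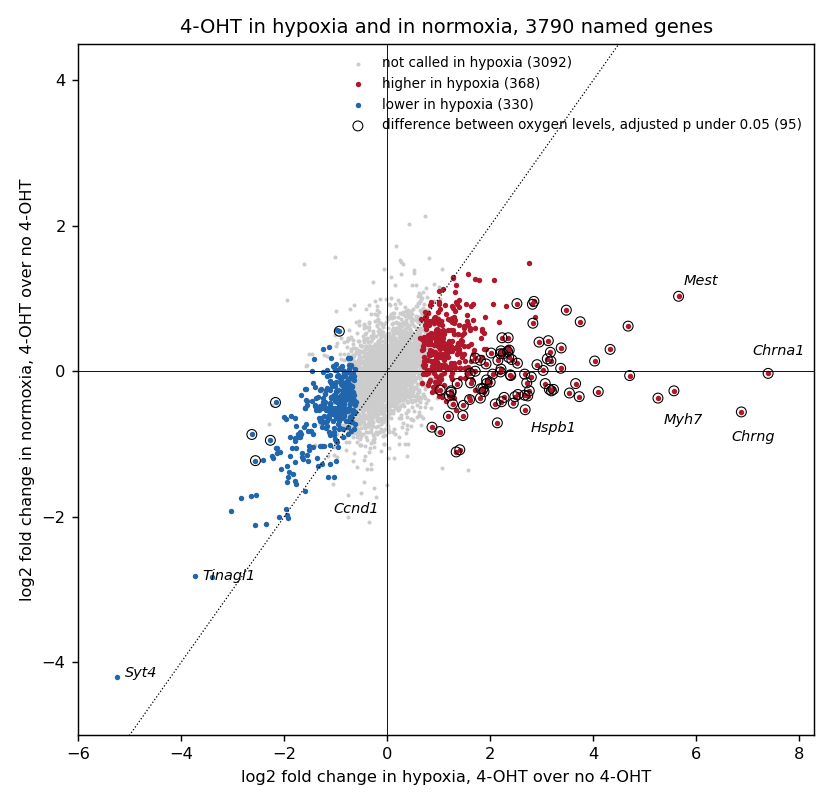
Log2 fold changes of 4-OHT over no 4-OHT in hypoxia (horizontal) and in normoxia (vertical) for the 3790 named genes. Colours give the call in hypoxia, rings mark the 95 genes with a difference between the oxygen levels, and the dotted line marks equal effects. Syt4 lies near that line at -5.25 and -4.20, whereas Chrna1 lies at 7.40 and -0.03.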

How the data were processed

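RNA of primary melanocytes was labelled with Cy3 and read on 12 BeadChip arrays, of which 8 mutant arrays were fitted and 4 compared. The deposited intensities are mean bead intensities per probe, linear and without background subtraction, which the authors derived in BeadStudio 3.0. The authors' detection p-values place each probe in the distribution of negative control beads. A further deposited set of intensities, background subtracted and cubic spline normalized by the authors, was used only as an alternative, with values under 16 set to 16.

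The mean and spread of the background were inferred from the detection p-values. For this, 5 bright probes with a detection p between 0 and 1 in 1603 were left out, since they widened the spread to 100 to 178 units. Intensities were corrected by normexp, raised by an offset of 16, quantile normalized over the 8 arrays and taken as log2, so the lowest value stands for 18.4 units. Groups were compared as contrasts in 1 fit to the 8 arrays with limma 3.58.1 in R 4.3.3 (4 residual and 4.57 prior degrees of freedom) with Benjamini-Hochberg adjustment over 13809 probes. Precision is limited by the small number of arrays. Same-numbered arrays share a slide by the column headers, and their deviations correlated at 0.167 to 0.604 over the 6 pairs of groups, so the arrays are paired by slide.

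Of 46554 regular probes 10801 (23.2%) were named, in the main from a number within the identifier, taken as an Entrez gene number and looked up in RefSeq. Of 11857 such numbers 82.6% were in that table, against 46.0% after adding 1. Of 80 ribosomal protein probes 86.2% were above background on all arrays, and 0% of 440 probes of olfactory and vomeronasal receptors. Of the 3779 tested genes with a gene number 3054 had a promoter in RefSeq. Genes were named in the text as the 15 largest rises and 15 largest falls among called genes whose groups did not overlap, the 5 largest differences in each direction, genes named by the study, and members of the lists. The comparison, the lists and the rule were chosen with earlier results of these data known. The steps were tested on simulated data. Python 3.11.15 with pandas 2.3.3 was used for tables and matplotlib 3.10.9 for plots. The wild type arrays were used only in an alternative fit, and other experiments of the study are not analysed here. Some list members are counted but their values are not reported here.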

Additional observations from a re-analysis of the deposited data

Results flagged for a closer look

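The effect of 4-OHT differed between hypoxia and normoxia for 95 named genes by the test of the difference itself in limma, of which the 5 largest in each direction are given. The log2 fold change in hypoxia minus that in normoxia was 7.44 for Chrng (adjusted p = 1.74e-05), 7.43 for Chrna1 (2.04e-05), 5.84 for Neurl1a (7.18e-05), 5.63 for Myh7 (8.88e-04) and 4.78 for Mgp (8.99e-04). In these 5 genes both arrays of cultures without 4-OHT in hypoxia lay below all 6 other mutant arrays and were not above background, so these are fitted values whose size depends on the background. The part in hypoxia was at least 6.34 for Chrng, 6.87 for Chrna1, 5.17 for Neurl1a, 4.83 for Myh7 and 4.68 for Mgp on the log2 scale. The difference was -1.76 for Ntm (adjusted p = 0.00786), -1.74 for Spsb4 (0.0110), -1.48 for Rfng (0.0428), -1.33 for Csn3 (0.0489) and -1.32 for Foxm1 (0.0458 from limma). In these 5 genes both arrays of cultures without 4-OHT in hypoxia lay above all 6 others. All but Rfng were not above background with 4-OHT in hypoxia, so their differences are fitted values too.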

How the results depend on the processing

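In hypoxia 2986 probes were called (1474 higher, 1512 lower). The count was 1839 (728 higher) with a background estimated from all probes, 1200 (769 higher, 431 lower) with median scaling and 130 (109 higher, 21 lower) at an unadjusted p under 1e-06. Leaving out each array in turn gave 903 to 4108 probes, 518 to 1996 higher and 385 to 2112 lower. The lowest counts came without the first (903) or the second array (931) of the cultures without 4-OHT in hypoxia, and 1590 passed without replicate 1 of those with 4-OHT. With the slide as a block (replicate block) 4251 passed, and all 2986 were among them.

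For the difference between the oxygen levels (387 probes) the count was 128 with a background from all probes, 242 with median scaling, 665 with the replicate block, 759 with all 12 arrays, 47 at an unadjusted p under 1e-06 and 187 to 787 with an array left out. It was 187 or 192 without an array of the cultures without 4-OHT in hypoxia, 205 without replicate 1 of those without 4-OHT in normoxia, 244 without replicate 1 of those with 4-OHT in hypoxia and 787 without replicate 2 of those with 4-OHT in normoxia. In normoxia (50 probes) it was 11 with a background from all probes, 33 with no background correction, 18 with an offset of 50, 6 with median scaling, 506 with the replicate block, 845 with all 12 arrays, 9 with array weights, 2 at an unadjusted p under 1e-06 and 0 to 1048 with an array left out. The count of 0 came without replicate 1 of the cultures without 4-OHT and that of 1048 without replicate 2 of those with 4-OHT. The normoxia count thus says little about how many probes changed there. The cause of these shifts was not tested.

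Over the named genes and alternatives 2957 values kept direction and side of the threshold, 309 fell short of it, 25 newly passed and 1 changed sign, namely Rps9 at -0.04 as the mean over its kept probes. Kif1c and Tpm4 fell short in 11 alternatives each, B2m and H2bc7 in 10. Folds of dim genes depend on the estimated background.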

Other observations

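Some further genes were picked after their values had been seen. Serpinf1, which encodes the antiangiogenic serpin PEDF, had log2 signals of 12.43 and 11.74 with 4-OHT in hypoxia and 9.03 and 8.79 without (log2 fold change 3.18, adjusted p = 2.31e-04 from limma). Serpina3n, an inhibitor of serine proteases, had 11.14 and 10.99 with 4-OHT and 8.38 and 8.24 without (2.76, adjusted p = 8.09e-05), and Vcam1, an adhesion molecule for leukocytes, had 9.21 and 8.97 with 4-OHT and 6.10 and 6.18 without (2.95, adjusted p = 4.54e-05 from limma). In normoxia these 3 genes had -0.27 for Serpina3n, 0.14 for Serpinf1 and 0.40 for Vcam1, and none of the 3 passed.

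Of 4 tested Hox genes, which set position along the body axis, Hoxa7 was at least 3.96-fold, Hoxd4 at least 2.6-fold and Hoxd8 at least 2.42-fold higher with 4-OHT in hypoxia, and Hoxb2 was lower (-0.99). Among all named genes 9.71% were higher and 8.71% lower. Hoxa7, Hoxd4 and Hoxd8 were not above background without 4-OHT in hypoxia and were kept only through the arrays with it. The count of higher Hox genes thus leans this way by the rule and is a description. Hoxd4 had 6.47 and 6.00 with 4-OHT and 4.33 and 4.29 without, and in normoxia 5.96 and 5.45 with 4-OHT and 5.88 and 5.89 without.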
